A study of Mus musculus with 30 samples.

Results

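The genes described here lie on mouse chromosome 1, and their mean level in wild-type cells changed by less than a set fold with interferon-gamma (IFNG). They are called genes without IFNG response, although smaller changes with IFNG stay within the limit. They were chosen by 3 conditions: a mean of at least 1 CPM (counted fragments of a gene, scaled to a common library size) over all 30 libraries, a position on chromosome 1, and an absolute log2 ratio of mean IFNG-treated to mean untreated CPM under 0.5 over the 18 wild-type libraries, with 0.5 CPM added to each mean. Of 3443 annotated genes on the chromosome, 776 reached the level and 643 of these met the limit on the response. The IFNG ratio therefore chose the genes, and the chromosome was picked because both knockout clones were known to be lower over it as a whole, so that direction is a description here and carries no test. The members closest to the limit were Ptgs2, at 0.4999, and Tmcc2, at -0.4910. The closest chromosome 1 genes outside it were Gm25789, at 0.5032, and Lrrfip1, at -0.5049.

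RNA-seq was performed on J774A.1 cells, a mouse macrophage-like line. Wild-type (WT) clones WT1, WT2 and WT3 were compared with knockout (KO) clones KO1 and KO2, which were homozygous for a CRISPR deletion of a B2_Mm2 element, a rodent SINE transposon, inside the Dicer1 gene on chromosome 12. IFNG was given at 100 ng/mL for 4 h or left out, and 3 libraries were made from every clone in each of these states. All 5 clones were isolated by dilution to single cells, electroporation with Cas9 is described for the KO lines alone, and each line is 1 clone, so the deletion, the editing procedure and the history of a clone cannot be told apart. IFNG is a cytokine that switches on interferon-stimulated genes. Genes without such a response include much of the housekeeping machinery of a macrophage, such as splicing factors, ribosomal proteins, mitochondrial enzymes and the actin network, and they serve as a background against which position along a chromosome can be examined. A chromosome carries genes of unrelated function side by side, and neighbouring genes on opposite strands may share a promoter.

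The libraries held between 15566122 and 37992642 counted fragments. Expression of Dicer1 ranged from 96.7 to 130 CPM in untreated WT libraries and from 70.5 to 108 CPM in untreated KO libraries, and after IFNG it was 132 to 171 CPM in WT cells against 71.4 to 105 CPM in KO cells. These counts of exons cannot show the intronic deletion itself. Gbp2b, an interferon-induced GTPase, was at most at 3.70 CPM in every untreated library and at least at 1076 CPM in every IFNG-treated library. All 8 macrophage markers were detected, with a summed level of 4094 to 5428 CPM in untreated WT and 5898 to 6627 CPM in untreated KO libraries, and of 4312 to 5614 CPM and 6100 to 6535 CPM after IFNG. By contrast, the 3 T cell markers summed to at most 0.0499 CPM, the 3 epithelial markers to at most 0.143 CPM and the 3 B cell markers to at most 0.158 CPM. The 3 fibroblast markers summed to 0.331 to 2.92 CPM and the 3 endothelial markers to 1.37 to 3.29 CPM. The macrophage sum was thus higher in every KO library, and its part in the results below was not tested.

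Promoter sequences of some members named below are given here, as RefSeq annotates them on GRCm38.p6. They run from 250 bases before to 50 bases after a gene start. The first is the promoter of Bivm, whose start lies 148 bases from that of the divergent gene Kdelc1. Capitals mark the bases between the 2 annotated genes, which hold 7 of the 13 CpG dinucleotides of the window. The window spans chr1:44118707-44119006 on the + strand.
Bivm: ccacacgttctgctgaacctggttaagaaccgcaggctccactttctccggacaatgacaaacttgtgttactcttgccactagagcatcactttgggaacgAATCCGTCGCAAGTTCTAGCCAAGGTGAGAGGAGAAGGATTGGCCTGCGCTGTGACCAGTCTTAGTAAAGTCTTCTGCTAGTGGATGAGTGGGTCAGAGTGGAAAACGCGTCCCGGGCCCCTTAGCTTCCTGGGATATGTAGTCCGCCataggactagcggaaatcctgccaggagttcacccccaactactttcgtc

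The other promoters show 3 of the 4 matches found when the windows of the members named below for their stretch or their log2FC were searched on both strands for TTCNNNGAA (a GAS-type motif), an ISRE-type motif and TATAAA. The match not shown is TATAAA in 1 of the windows of Kansl1l. Capitals mark the matches, which are letters in a window and no evidence of binding. Trak2 (chr1:58973433-58973732, - strand) and Ankrd44 (chr1:54926338-54926637, - strand) were lower in KO cells and Ppp1r12b (chr1:134803793-134804092, - strand, the first listed of its windows) was higher.
Trak2: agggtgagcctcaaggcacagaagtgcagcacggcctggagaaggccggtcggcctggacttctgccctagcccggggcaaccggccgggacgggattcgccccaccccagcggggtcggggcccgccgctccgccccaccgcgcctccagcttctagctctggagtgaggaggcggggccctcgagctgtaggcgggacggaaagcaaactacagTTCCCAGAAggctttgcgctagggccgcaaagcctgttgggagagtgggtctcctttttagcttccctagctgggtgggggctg
Ankrd44: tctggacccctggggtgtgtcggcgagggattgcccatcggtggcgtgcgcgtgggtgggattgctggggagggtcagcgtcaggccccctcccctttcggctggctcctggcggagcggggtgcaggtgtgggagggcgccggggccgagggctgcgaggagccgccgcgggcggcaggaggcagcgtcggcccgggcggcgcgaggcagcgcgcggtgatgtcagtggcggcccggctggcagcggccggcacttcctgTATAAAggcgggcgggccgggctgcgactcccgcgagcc
Ppp1r12b: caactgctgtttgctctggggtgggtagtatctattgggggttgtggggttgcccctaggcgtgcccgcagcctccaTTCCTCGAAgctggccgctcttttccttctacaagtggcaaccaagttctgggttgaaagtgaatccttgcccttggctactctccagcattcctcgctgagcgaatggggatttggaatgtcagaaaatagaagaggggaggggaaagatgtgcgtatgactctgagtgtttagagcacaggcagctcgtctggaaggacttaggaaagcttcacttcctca
Among all 32851 promoters searched, 8.30% held the GAS-type match and 13.6% TATAAA. A promoter was found for 113 of the 199 members up to 70 Mb and for 342 of the 444 members beyond, which is 56.8% and 77.0%. Both are under the 80% set for a comparison of shares, so the comparison is void and no motif share is given for the members.

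The lower expression of both KO clones was found in the first 70 Mb of the chromosome. A shift was computed per gene, as the mean log2(CPM + 0.5) of a clone minus the mean over WT clones other than itself, less the median of this difference over all 12345 genes at or above 1 CPM. In untreated KO1 cells the median shift was -0.13 from 0 to 10 Mb, -0.26 from 10 to 20 Mb, -0.26 from 20 to 30 Mb, -0.30 from 30 to 40 Mb, -0.29 from 40 to 50 Mb, -0.31 from 50 to 60 Mb and -0.15 from 60 to 70 Mb. The same stretches in untreated KO2 cells had medians of -0.22, -0.33, -0.18, -0.28, -0.26, -0.30 and -0.23. From 70 to 80 Mb the medians were 0.02 in KO1 and -0.02 in KO2. No stretch beyond 70 Mb was below -0.1 in both clones and both treatments, and the highest median there was 0.15, in KO1 from 120 to 130 Mb. IFNG left the outline in place, with KO1 medians between -0.29 and -0.12 and KO2 medians between -0.35 and -0.17 in the 7 stretches up to 70 Mb.

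**Figure D1:**
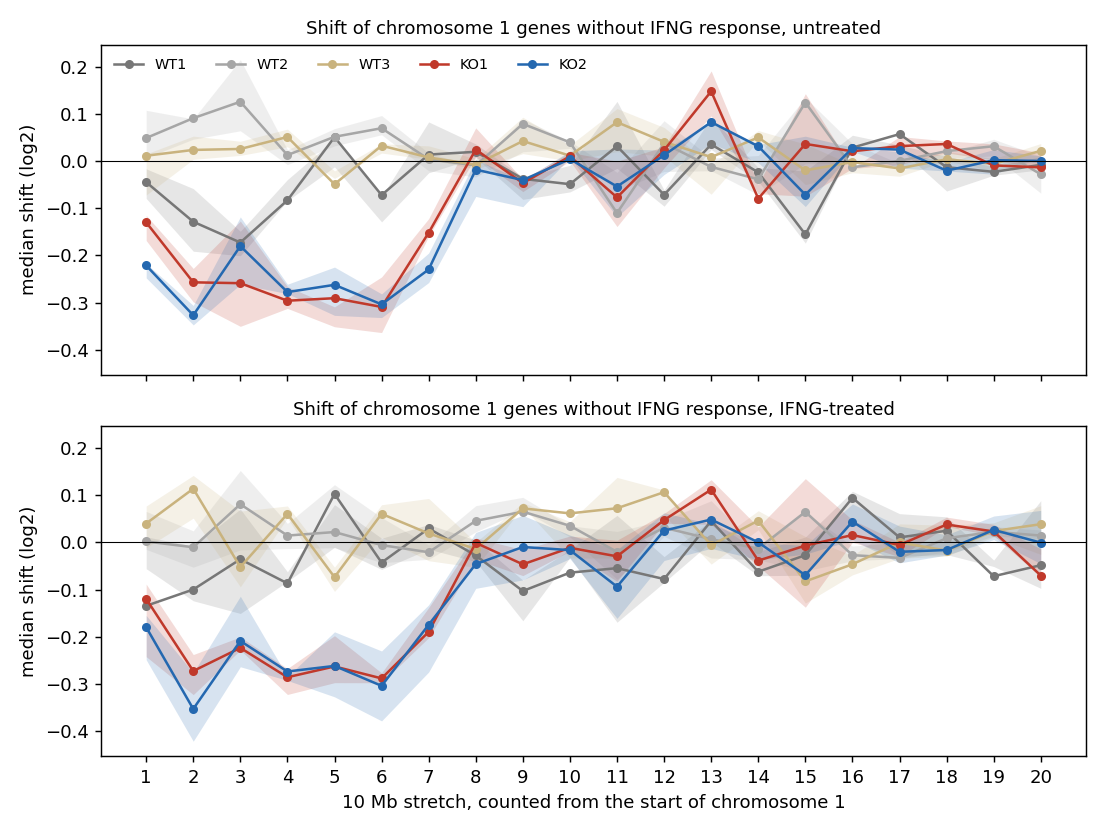
Median shift (log2) of chromosome 1 genes without IFNG response in each 10 Mb stretch, numbered from the chromosome start, for untreated (top) and IFNG-treated (bottom) cells. Lines and points are the 5 clones and bands span the 3 libraries of a clone. Both KO clones lie below all WT clones in stretches 1 to 7, though WT1 comes close in stretch 3 when untreated (-0.17 against -0.18 in KO2), except that WT1 lies below KO1 in stretch 1 after IFNG (-0.13 against -0.12), and all clones scatter around 0 from stretch 8.

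Taken as 1 block, the 199 members up to 70 Mb had a median shift of -0.26 in untreated KO1 and -0.27 in untreated KO2, which corresponds to 0.832 and 0.827 times the WT level. In KO1 166 of them were below 0, in KO2 171, and 156 were below 0 in both clones. The medians after IFNG were -0.26 in both clones. Over single libraries, the block median lay between -0.30 and -0.20 in the 12 KO libraries and between -0.08 and 0.06 in the 18 WT libraries, so the genotypes did not overlap. WT1 was the lowest WT clone, with an untreated median of -0.06 against 0.05 in WT2 and 0.03 in WT3, and its median was -0.17 from 20 to 30 Mb. Many members of that stretch are pseudogenes, such as Gm28661 and Gm29216, so its medians are less certain in every clone. The 444 members beyond 70 Mb had untreated medians of 0.0022 in KO1 and -0.0060 in KO2, and their library medians spanned -0.02 to 0.01 in KO and -0.03 to 0.02 in WT cells, which overlapped.

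**Figure D2:**
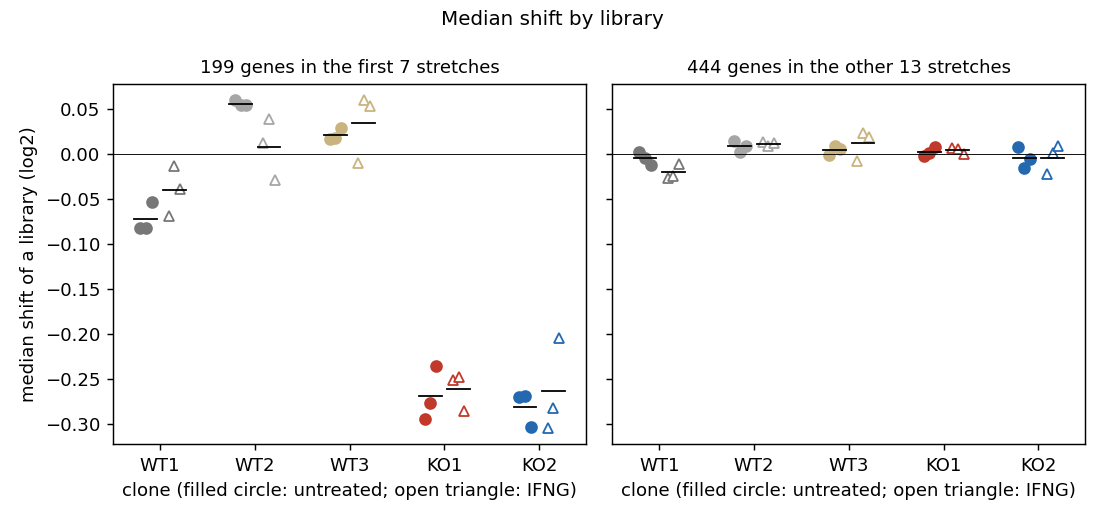
Median shift (log2) of each library over the 199 members up to 70 Mb (left) and the 444 beyond (right), by clone, with untreated libraries as filled circles, IFNG-treated libraries as open triangles and the mean of 3 libraries as a bar. The 12 KO libraries lie between -0.30 and -0.20 on the left, below every WT library, and near 0 on the right.

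The place of the change was then estimated. When the members were ordered by position and split where the deviations from 2 medians were smallest, the split for KO1 fell between Smarcal1 (start at 72583251) and Rpl37a (72711290) in both treatments, and for KO2 between Atic (71557150) and Pecr (72259167) in both treatments. In 9 of the 12 KO libraries the first gene after the split started between 70 and 73 Mb, and in 0 of the 18 WT libraries. In the other 3 KO libraries the last gene before the split was Abi2 (60409619), Acadl (66830839) or Epha4 (77367185). The window of 70 to 73 Mb takes in the splits found for both KO clones, and the KO libraries come from those 2 clones. Within a treatment every KO shift also used the same WT libraries. The count therefore describes the split and is no separate support for it. The step in KO libraries was 0.22 to 0.30 on the log2 scale, against sizes of 0.02 to 0.17 in WT libraries. Acadl, a mitochondrial acyl-CoA dehydrogenase, had untreated shifts of -0.60 in KO1 and -0.63 in KO2. Bard1, the partner of BRCA1, had shifts of -0.63 and -0.57, and Atic, an enzyme of purine synthesis, had shifts of -0.20 and -0.26. Pecr, a peroxisomal reductase, had 0.02 and 0.11, Xrcc5, which encodes the DNA end-binding protein Ku80, had -0.29 and -0.06, and Smarcal1, a helicase of stalled replication forks, had -0.25 and -0.21. Of the genes that follow, Rpl37a, Arpc2 and Zfp142 were above 0 in both clones, at 0.13 and 0.07, 0.02 and 0.11, and 0.28 and 0.25, and Ctdsp1 and Cyp27a1 were below 0 in both, at -0.11 and -0.10, and -0.38 and -0.17. The 4 genes from Atic to Smarcal1 thus did not all lie on 1 side, and an edge cannot be placed more narrowly from these values.

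**Figure D3:**
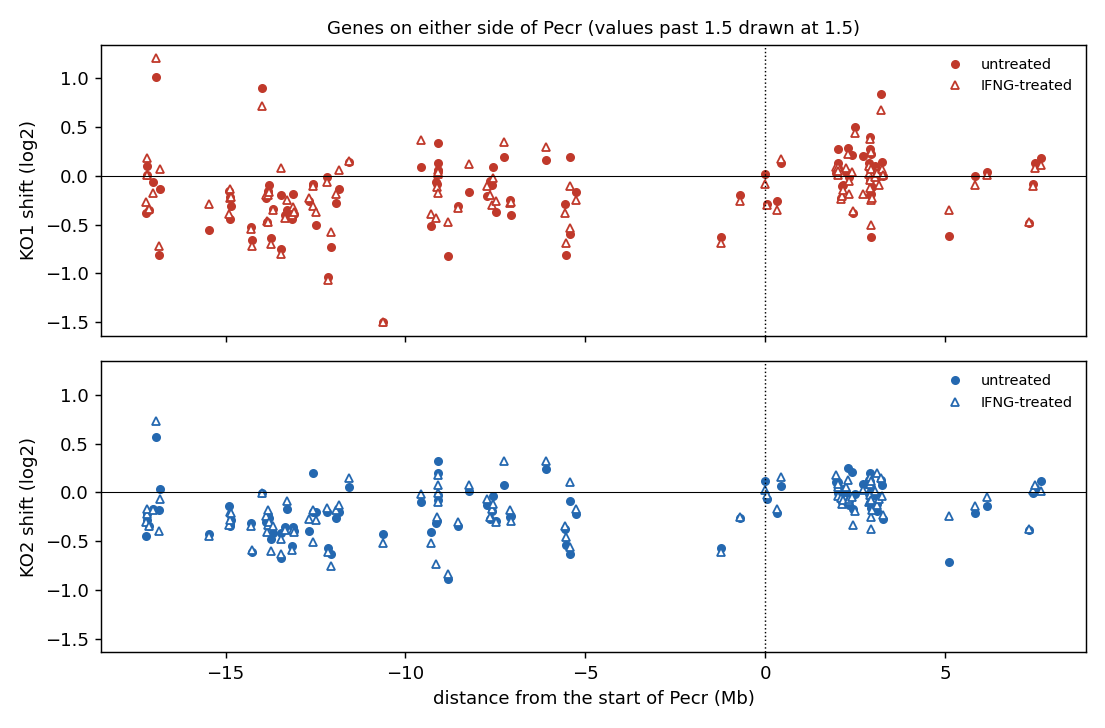
Shift (log2) of single members of KO1 (top) and KO2 (bottom) against distance in Mb from the start of Pecr (dotted line), untreated as filled circles and IFNG-treated as open triangles. Most genes left of the line are below 0 in both clones, Bard1 and Atic are the last low pair before the line, and the genes around 2 to 3 Mb scatter around 0.

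The edgeR quasi-likelihood test compared KO with WT libraries gene by gene. In untreated cells 14.4% of the 13886 genes tested were lower and 12.2% were higher at an adjusted p under 0.05. Up to 70 Mb 125 of 199 members were lower and 4 were higher, and beyond 70 Mb 55 of 444 were lower and 53 were higher. The median log2FC was -0.29 (median SE 0.07) in the first block and 0.01 (median SE 0.07) in the second, and -0.00040 over all genes tested. After IFNG 13% of 13637 genes were lower and 10.9% were higher, and 23.9% passed in either direction, compared with 115 lower and 10 higher members up to 70 Mb and 46 lower and 51 higher beyond. Because the lower direction was known for the chromosome as a whole, these counts describe where the lower members lie. Libraries of 1 clone are not separate clones. With counts summed per clone (3 WT against 2 KO), 0 members passed in either treatment by edgeR. Over all genes 1 of 16189 passed in untreated cells and 1 of 16197 after IFNG, so the 0 is no trait of the members. At an unadjusted p under 0.05 in the same test, 95 of 199 members up to 70 Mb were lower in untreated cells and 86 after IFNG. Over all genes 6.59% and 6.68% were lower at that p.

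Each KO clone gave the same outline on its own. Against WT, 105 members up to 70 Mb were lower and 4 higher in untreated KO1, where 14.6% of all genes were lower and 11.1% higher. In untreated KO2 98 were lower and 2 higher, where 6.7% of all genes were lower and 4.89% higher. After IFNG 83 were lower and 8 higher in KO1 (12.1% and 8.76% of all genes) and 80 were lower and 2 higher in KO2 (6.12% and 3.92% of all genes). The counts in KO2 and in IFNG-treated KO1 depend on single libraries. In untreated KO2 58 to 63 were lower without replicate 2 or 3. After IFNG 55 were lower in KO1 without replicate 1, and in KO2 31 without replicate 1 or 2, 52 without replicate 3 and 123 without clone WT1. The comparisons share their WT libraries. In untreated cells 84 members up to 70 Mb were lower in both clones and after IFNG 67 were, against 11 of 444 beyond 70 Mb in each treatment, beside 5.11% and 4.59% of all genes tested in both clones. Between the KO clones, 21 members up to 70 Mb were lower in KO1 than in KO2 when untreated and 19 were higher, beside 12.1% and 11.1% of all genes, and after IFNG the counts were 10 and 12, beside 8.36% and 6.53% (14.9% in either direction). The median log2FC of KO1 over KO2 for the block was 0.0024 untreated and 0.01 after IFNG.

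Whole ranges of libraries were often apart. Among the 199 members up to 70 Mb, every untreated KO library was below every untreated WT library for 73 genes, beside 5.59% of all 12345 genes at that level, and after IFNG for 64, beside 5.06%. The reverse held for 0 and 3 of them. Beyond 70 Mb the counts of genes with KO below WT were 13 and 12 of 444. By clone means, both KO clones were below all 3 WT clones for 122 of the 199 in untreated cells, beside 16.2% of all genes, and for 125 after IFNG, beside 16.9%.

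The values differed by type of gene. All 643 members were found by identifier in GENCODE vM21, 641 with the same span. Up to 70 Mb, the 156 protein-coding members had median untreated shifts of -0.31 in KO1 and -0.31 in KO2, with 143 and 148 below 0 and with 120 called lower and 1 higher. Over all genes tested in untreated cells 14.4% were called lower and 12.2% higher. The 27 pseudogenes had medians of 0.10 and 0.03, with 12 below 0 in each clone. Of the pseudogenes 2 were called lower and 3 higher, and neither count is above those shares. The most abundant pseudogene up to 70 Mb was Eif4a-ps4, derived from a translation initiation helicase. It had a mean of 224 CPM and was not called (log2FC 0.10, adjusted p = 0.0618). Fragments from a parent gene on another chromosome may be counted at a pseudogene, although the authors kept uniquely aligned fragments alone. How often this happened was not tested, and the values of pseudogenes are uncertain for that reason. The 16 other non-coding members had untreated medians of -0.09 in KO1 and -0.17 in KO2. After IFNG they had -0.24 and -0.25, nearer to the protein-coding members at -0.29 and -0.30, while the pseudogenes had 0.12 and 0.05. Beyond 70 Mb the 381 protein-coding members had medians of -0.01 in each clone. The 33 pseudogenes there had untreated medians of 0.14 in KO1 and 0.02 in KO2, with 7 and 16 below 0. The 30 other non-coding members there had -0.01 and 0.10, with 15 and 10 below 0. When the members up to 70 Mb were split into 3 by exon length, the 66 shortest (78 to 2870 bases) had medians of -0.10 in KO1 and -0.19 in KO2, the 66 of middle length -0.30 and -0.33 and the 67 longest (6742 to 28441 bases) -0.37 and -0.29. By level, the 67 lowest (1.01 to 13.7 CPM) had -0.13 and -0.19, the 65 in the middle -0.31 and -0.28 and the 67 highest (66.4 to 1200 CPM) -0.27 and -0.30.

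**Figure D4:**
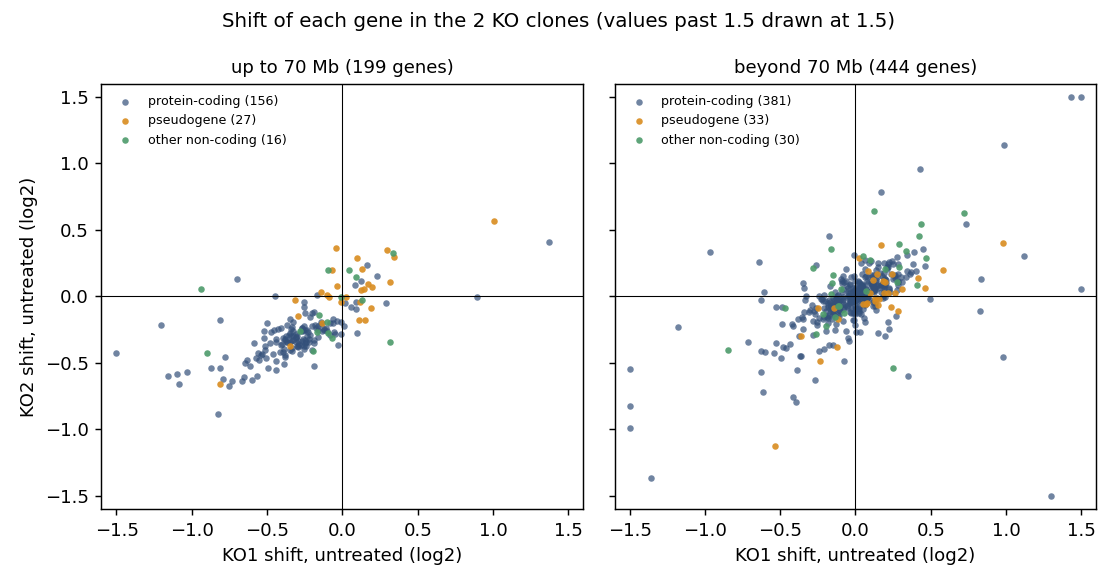
Shift (log2) of each member in untreated KO1 (horizontal) and KO2 (vertical), up to 70 Mb (left) and beyond (right), coloured by type of gene, with values past 1.5 drawn at 1.5. On the left the protein-coding genes cluster around -0.31 in both clones, and the pseudogenes have medians of 0.10 in KO1 and 0.03 in KO2. On the right the protein-coding genes lie around 0. The pseudogenes there have medians of 0.14 in KO1 and 0.02 in KO2, and the other non-coding genes -0.01 and 0.10.

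From 50 to 60 Mb, where the larger of the 2 KO medians was lowest, the 5 most abundant members with both KO clones below all WT clones included Sf3b1, Bzw1, Trak2 and Nab1. Sf3b1, a core component of the U2 spliceosome (54985169 to 55027481, - strand, mm10), ranged from 621 to 669 CPM (median 654) in untreated WT libraries and from 532 to 582 CPM (median 547) in untreated KO libraries. The ranges did not overlap, and the log2FC was -0.25 ± 0.03 (SE, adjusted p = 2.42e-05), with -0.20 ± 0.04 after IFNG (adjusted p = 0.000652). Trak2, which links mitochondria to kinesin motors, ranged from 126 to 169 CPM (median 163) in untreated WT and from 114 to 120 CPM (median 117) in untreated KO libraries, again without overlap, and WT1 was the WT clone nearest to KO at 128 CPM. Its log2FC was -0.38 ± 0.07 (adjusted p = 0.000748). For Bzw1, a regulator of translation start (log2FC -0.27 ± 0.07, adjusted p = 0.0108), and for Nab1, a corepressor of EGR factors (log2FC -0.32 ± 0.08, adjusted p = 0.00564), the ranges overlapped in both treatments.

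From 30 to 40 Mb the 5 members were Uggt1, Map4k4, Eif5b, Plekhb2 and Phf3. Map4k4, a kinase upstream of JNK signalling (39900913 to 40026310, + strand), ranged from 182 to 241 CPM (median 194) in untreated WT and from 141 to 150 CPM (median 147) in untreated KO libraries. The groups did not overlap in either treatment, and the log2FC was -0.49 ± 0.07 untreated (adjusted p = 5.32e-05) and -0.51 ± 0.05 after IFNG (adjusted p = 8.5e-06). Phf3, a PHD finger protein bound to RNA polymerase II, was at 177 to 197 CPM in untreated WT and 143 to 157 CPM in untreated KO libraries, and its WT clones were close together at 187, 185 and 188 CPM. Its log2FC was -0.35 ± 0.03 (adjusted p = 2.4e-06). Uggt1, the glucosyltransferase that senses misfolded glycoproteins, was at 274 to 348 CPM in untreated WT and 253 to 269 CPM in untreated KO libraries. Eif5b, which joins ribosomal subunits, was at 167 to 210 CPM and 145 to 164 CPM. Plekhb2, a membrane-binding protein of endosomes, was at 171 to 208 CPM and 154 to 161 CPM, and its ranges overlapped after IFNG only.

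From 40 to 50 Mb the members were Tpp2, Uxs1, Tgfbrap1, Mrps9 and Kdelc1. Tpp2, a large cytosolic peptidase that acts after the proteasome (43933647 to 44003000, + strand), ranged from 234 to 328 CPM (median 306) in untreated WT and from 190 to 222 CPM (median 206) in untreated KO libraries. These did not overlap, the log2FC was -0.50 ± 0.07 (adjusted p = 0.000136), and after IFNG the ranges of 309 to 434 CPM in WT and 246 to 291 CPM in KO libraries did not overlap either. Kdelc1, an endoplasmic reticulum glycosyltransferase (44106546 to 44118808, - strand), ranged from 29.1 to 33.9 CPM (median 31.6) in untreated WT and from 20.1 to 22.4 CPM (median 21.02) in untreated KO libraries, with a log2FC of -0.59 ± 0.04 (adjusted p = 1.29e-07). Its divergent neighbour Bivm (44118957 to 44144770, + strand), whose promoter is printed above, ranged from 28.3 to 31.1 CPM in untreated WT and from 16.98 to 19.8 CPM in untreated KO libraries. Its log2FC was -0.66 ± 0.04 (adjusted p = 3e-08), and after IFNG it was -0.60 ± 0.05 (adjusted p = 1.2e-06). The clones of a genotype were close for both neighbours, with KO1 and KO2 at 21.4 and 20.7 CPM for Kdelc1 and 18.7 and 18.9 CPM for Bivm. Mrps9, a mitochondrial ribosomal protein, and Uxs1, which makes UDP-xylose, had log2FC of -0.41 ± 0.06 and -0.32 ± 0.05 without overlap, and Tgfbrap1, a vesicle tethering factor, had -0.42 ± 0.09 with overlap in untreated cells.

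The 8 members with the lowest log2FC, among those called in both treatments, averaging 5 CPM or more and with both KO clones outside the WT range, all lay up to 70 Mb. Beside Bivm they were Ogfrl1, Ankrd44, Mfsd6, Casp8, Ube2w, Nbeal1 and Kansl1l. Ogfrl1 (23366424 to 23397772, - strand) ranged from 113 to 201 CPM (median 183) in untreated WT and from 72.8 to 108 CPM (median 87.6) in untreated KO libraries. The ranges did not overlap, but the WT clones differed widely, at 115, 179 and 196 CPM, and the log2FC was -0.89 ± 0.15 (adjusted p = 0.000465). Casp8, the initiator caspase of death receptor signalling (58795374 to 58847503, + strand), ranged from 71.2 to 95.8 CPM (median 89.5) in untreated WT and from 51.2 to 55.9 CPM (median 52.4) in untreated KO libraries. After IFNG the WT libraries spanned 92.6 to 121 CPM and the KO libraries 58.5 to 75.04 CPM, so the groups stayed apart, with log2FC of -0.72 ± 0.06 (adjusted p = 1.13e-06) and -0.71 ± 0.07 (adjusted p = 5.6e-06). Ube2w, a ubiquitin-conjugating enzyme, was at 48.1 to 66.7 CPM in untreated WT and 31.9 to 39.4 CPM in untreated KO libraries (log2FC -0.71 ± 0.07). Kansl1l, a relative of a histone acetyltransferase subunit and 1 of the last low members, was at 12.005 to 14.02 CPM and 6.59 to 9.47 CPM (log2FC -0.69 ± 0.08). In untreated cells the 2 KO clones differed for Ogfrl1, Ankrd44, Mfsd6 and Kansl1l, with KO1 lower in each.

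The 8 members with the highest log2FC under the same rule all lay beyond 70 Mb. Ppp1r12b, a regulatory subunit of myosin phosphatase (134754658 to 134955942, - strand), ranged from 10.96 to 31.4 CPM (median 12.8) in untreated WT and from 43.5 to 97.3 CPM (median 65.4) in untreated KO libraries. The groups did not overlap, WT1 stood above the other WT clones at 29.4 CPM, and the log2FC was 1.88 ± 0.28 (adjusted p = 0.000117) and 1.88 ± 0.31 after IFNG (adjusted p = 0.000417). Cdc42bpa, a kinase that acts on the actin-myosin network, was at 3.07 to 5.74 CPM in untreated WT and 8.29 to 10.5 CPM in untreated KO libraries (log2FC 1.15 ± 0.11, adjusted p = 3.98e-06). Zranb3, a DNA translocase of stalled replication forks, was at 46.8 to 66.2 CPM and 75.2 to 92.7 CPM (log2FC 0.64 ± 0.08, adjusted p = 1.37e-05). The others were Gm7967, Tsen15, Mir8114, Slc19a2 and Ube2f, with log2FC between 0.35 and 0.49. Mir8114 overlaps the start of Glul on the same strand, and a fragment there was counted for both, so its value is uncertain.

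**Figure D5:**
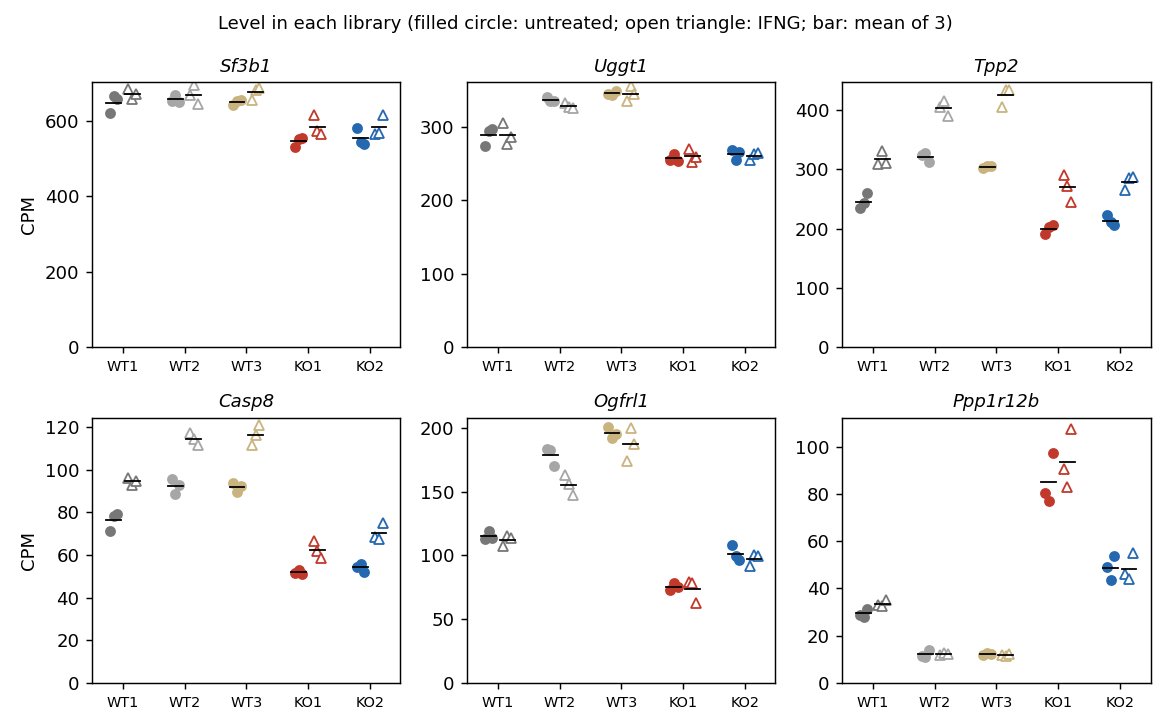
Level (CPM, axes from 0) of 6 members in each library, by clone, with untreated libraries as filled circles, IFNG-treated libraries as open triangles and the mean of 3 as a bar. Sf3b1, Uggt1, Tpp2, Casp8 and Ogfrl1 are lower in the KO clones and Ppp1r12b is higher, at 43.5 to 97.3 CPM against 10.96 to 31.4 CPM in untreated WT libraries.

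Members were also grouped by function, in lists of selected genes that leave out other members of a function, such as Eif5b for translation. The counts of members below refer to these lists. Beside them, 14.4% of all genes tested were lower and 12.2% higher in untreated cells, and 13% and 10.9% after IFNG. Of 28 members of mitochondrial and energy metabolism, 12 lay up to 70 Mb and 9 of these were called lower in each treatment with 0 higher, at a median log2FC of -0.29 untreated, while of the 16 beyond 70 Mb 2 were lower and 3 higher untreated, at a median of 0.02. Idh1, which makes cytosolic NADPH, ranged from 194 to 272 CPM in untreated WT and from 192 to 219 CPM in untreated KO libraries with overlap (log2FC -0.25 ± 0.08, adjusted p = 0.0322). Hspd1, the mitochondrial chaperonin, also lay up to 70 Mb and was not called (log2FC -0.11 ± 0.08, adjusted p = 0.376). Of 26 members of ribosome, translation and RNA processing, 9 of 12 up to 70 Mb were lower in untreated cells and 6 after IFNG, against 1 of 14 and 0 of 14 beyond. Rpl7, a ribosomal protein up to 70 Mb, had a log2FC of -0.24 ± 0.08 (adjusted p = 0.0426) untreated and -0.20 ± 0.08 (adjusted p = 0.0929) after IFNG, whereas Ncl (nucleolin) and Hnrnpu beyond 70 Mb had untreated values of -0.01 ± 0.09 and -0.04 ± 0.05 that were not called.

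Of 18 members of the ubiquitin and proteasome group, all 4 up to 70 Mb (Cops5, Rnf149 and Ube2w among them) were lower in both treatments, while 3 of 14 beyond were lower and 1 higher untreated. The abundant members beyond 70 Mb were not called, with log2FC of -0.03 ± 0.03 for Trip12, a ubiquitin ligase, 0.03 ± 0.05 for Psmd1, a proteasome subunit, and -0.10 ± 0.07 for Cul3, a ligase scaffold. The group of actin, vesicles and transport had 3 members up to 70 Mb (Actr1b, Arfgef1 and Atp6v1h), which were lower in both treatments, and 18 beyond, of which 2 were lower and 5 higher untreated. Both Actr3 and Arpc5, subunits of the actin-nucleating Arp2/3 complex beyond 70 Mb, were higher without overlap, at 1458 to 1613 CPM in untreated KO against 1266 to 1356 CPM in untreated WT libraries for Actr3 (log2FC 0.22 ± 0.03, adjusted p = 0.000154) and at 888 to 947 CPM against 736 to 804 CPM for Arpc5 (log2FC 0.25 ± 0.03, adjusted p = 3.31e-05). Arpc2, another subunit of the complex, was called after IFNG (log2FC 0.15 ± 0.04, adjusted p = 0.00643) and not in untreated cells (0.07 ± 0.03, adjusted p = 0.124).

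Of the 21 listed members of DNA replication, repair and mitosis, 3 of 4 up to 70 Mb and 7 of 17 beyond were lower in untreated cells, with 0 higher. Over all genes tested 14.4% were lower and 12.2% higher. The 17 beyond include Bard1 and Smarcal1 near the step, and the median log2FC there was -0.15 untreated and -0.12 after IFNG. Nucks1, a DNA-binding protein of homologous recombination, ranged from 652 to 979 CPM in untreated WT and from 656 to 770 CPM in untreated KO libraries with overlap (log2FC -0.30 ± 0.09, adjusted p = 0.0192), and Mcm6, a subunit of the replicative helicase, had 0.01 ± 0.04 (adjusted p = 0.861). Of 20 members of macrophage receptors and immune signalling, 3 lay up to 70 Mb, where Casp8 was lower and the interleukin receptor genes Il1r2 and Il1rl1 were not called in untreated cells. The 17 beyond had a median log2FC of -0.07 untreated and -0.01 after IFNG. Mapkapk2, a kinase downstream of p38, was higher (0.17 ± 0.04, adjusted p = 0.0098), and Soat1, which esterifies cholesterol, was not called (-0.07 ± 0.04, adjusted p = 0.195).

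Some abundant members up to 70 Mb had values near 0 in untreated cells. Nrp2, a neuropilin coreceptor with a mean of 650 CPM, had a log2FC of 0.01 (adjusted p = 0.945), and Eef1b2, an elongation factor subunit, had -0.01 (adjusted p = 0.93). Both were chosen after their values were seen. The protein-coding member called higher was St18, a zinc finger factor with a mean of 2.105 CPM (log2FC 1.21, adjusted p = 0.00244).

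Genes of the same 70 Mb past the limit on the IFNG ratio, which are not members, were also often lower. The 29 chromosome 1 genes past the limit there had a median log2FC of -0.59 in untreated and -0.61 in IFNG-treated KO cells, with 23 and 20 called lower and 0 higher. Over all genes tested 14.4% were lower and 12.2% higher untreated, and 13% and 10.9% after IFNG. Over all chromosomes, 250 stretches of 10 Mb held at least 10 genes without response, and 19 of them had medians below -0.1 in both KO clones and both treatments. Of these, 7 were on chromosome 1 and 12 on chromosome 6, where the whole-chromosome medians in untreated cells were -0.24 in KO1 and -0.27 in KO2. Chromosome 12, which carries Dicer1, had a median of -0.36 in untreated KO1 and -0.0029 in untreated KO2.

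The IFNG response of the members was also measured in the KO clones, whose libraries did not choose them on this ratio. In KO1 73 of 641 tested members were lower after IFNG and 98 were higher, beside 13.2% and 16.2% of all genes tested. In KO2 76 of 642 were lower and 73 higher, beside 13.2% and 13.9%. Of 640 members tested in both clones, 51 were lower and 57 higher in both, beside 9.62% and 11.9% of all genes. The median size of the called changes was 0.30 in KO1 and 0.29 in KO2 on the log2 scale, and 22 and 17 of them exceeded 0.5. Ptgs2, the inducible cyclooxygenase at the edge of the limit, rose from 8.996 to 14.8 CPM in untreated KO libraries to 29.4 to 53.7 CPM after IFNG, with a log2FC of 2.02 ± 0.13 in KO1 (adjusted p = 2.45e-08) and 1.66 ± 0.17 in KO2 (adjusted p = 2.72e-06). In WT cells its level differed more between clones than between treatments, at means of 69.0 CPM in WT1, 4.53 CPM in WT2 and 2.02 CPM in WT3 when untreated. The other large changes were in members with a mean under 4 CPM. 4933439K11Rik, a non-coding transcript, and Gm8818, a processed pseudogene, rose in KO1 by 1.42 ± 0.21 and 1.18 ± 0.16, Gm6264 rose in KO2 by 1.63 ± 0.27, and Mroh2a had -0.92 ± 0.20 in KO2 (adjusted p = 0.00283) and -0.27 ± 0.24 in KO1 (adjusted p = 0.432).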

How the data were processed

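RNA-seq libraries of 5 J774A.1 clones, untreated or treated with IFNG, were analysed from the deposited raw counts of fragments per gene. The authors used BBDuk for trimming and HISAT2 2.1.0 for alignment to mm10 and counted fragments over exons with featureCounts 1.6.2 in reversely stranded mode. Before counting, fragments without a unique alignment were dropped and technical replicates were merged. Per the file header, a fragment over overlapping genes counted for each and the annotation was Gencode vM18, where the methods name RefSeq. Per the labels, deepTools 3.0.1, SAMtools 1.10 and DESeq2 1.26.0 were also used. The 13 other deposited tables were not used. Counts per library were 15566122 to 37992642, and the SE reflects this depth together with the spread between libraries described below.

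CPM were computed here with TMM factors from 14870 genes. edgeR 4.0.16 in R 4.3.3 (filterByExpr, glmQLFit, glmQLFTest, Benjamini-Hochberg threshold of 0.05) was run over all genes, with the SE as the absolute log2FC over the square root of F. Nothing ties the 3 libraries of a clone to separate cultures. For KO1 against KO2 and for the IFNG responses, p-values measure the spread between libraries of a clone, which may be technical. In comparisons with WT the clones of a genotype were pooled, so the spread there also holds differences between clones. Replicate pairs differed by more than counting noise, at 1.95 to 19.5 times the chi-square that counting alone gives over 30 pairs, and were kept apart. The edgeR step was tested on simulated data. For KO against WT, untreated, over 13790 genes, 180 of 200 changed genes were recovered with 11 false calls. For KO1 against WT, untreated, over 14021 genes, 176 were recovered with 17 false calls. For KO1 against KO2, untreated, over 13686 genes, 162 were recovered with 15. For the IFNG response of KO1, over 13587 genes, 156 were recovered with 14. The simulated libraries carried no differences between clones of a genotype. False calls that such differences may cause were therefore not counted.

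The members, the lists of genes and the 70 Mb limit were chosen with earlier results of these data known. Named genes were the 5 most abundant members below all WT clones in each of the 3 lowest stretches, the 8 lowest and 8 highest log2FC under the limits given, the 3 most abundant members per list, the genes next to the response limit, the 3 largest responses per KO clone, and Dicer1 and Gbp2b. Other genes were named after their values were seen. Some named genes are not reported here. Alternatives were DESeq2 1.42.0, RLE factors, other count filters, 1 fit over all libraries, counts summed per clone, leaving out clones or libraries, and other settings of the shift. Python 3.11.15, numpy 2.4.6, pandas 2.3.3 and matplotlib 3.10.9 were used. Gene types came from GENCODE vM21 and promoters from RefSeq (GRCm38.p6).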

Additional observations from a re-analysis of the deposited data

Results flagged for a closer look

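Over 216 groups of libraries, 8 held a library far from the rest of its group. The limit used flags about 5% of groups when libraries are independent. Libraries of 1 clone are not, so the 8 cannot be set against that rate. Among untreated KO libraries the flagged values were Eif5b at 164 CPM, against 152 CPM for the next, and Nbeal1 at 25.98 CPM, against 20.4 CPM, both in KO2, and Mrps9 at 38.6 CPM in KO2, against 41.5 CPM. After IFNG, a WT1 library stood apart for Plekhb2, at 150.3 CPM against 169 CPM. A KO2 library stood apart after IFNG for Kansl1l, at 9.44 CPM against 7.49 CPM, and for Soat1, at 405 CPM against 380.2 CPM, and a KO1 library for Mroh2a, at 1.41 CPM against 0.949 CPM. The median shift beyond 70 Mb was -0.022 in 1 KO2 library after IFNG, and the next was 0.00089.

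The KO clones differed by the edgeR test in 23 comparisons of 14 of the 52 named members, given as the log2FC of KO1 over KO2. Over all genes tested 23.2% differed between the KO clones when untreated and 14.9% after IFNG. Such differences are therefore not particular to the named members. Lower in KO1 in untreated and IFNG-treated cells were Ogfrl1 (-0.43 and -0.40), Ankrd44 (-0.56 and -0.45), Mfsd6 (-0.52 and -0.39), Lbr, which encodes the lamin B receptor (-0.33 and -0.33), and Tmcc2 (-5.39 and -4.49). KO1 held Tmcc2 at a mean of 0.0404 CPM when untreated, so the size of its value depends on the prior count. Higher in KO1 in both were Ppp1r12b (0.79 and 0.96), Ube2f (0.23 and 0.39), Hspd1 (0.23 and 0.23) and Gm8818 (0.78 and 1.18). In untreated cells alone Kansl1l passed the test with -0.29 and Zranb3 with 0.19. After IFNG alone Nab1 passed with 0.19, Cdc42bpa with -0.40 and 4933439K11Rik with 0.75.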

How the results depend on the processing

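The median shifts up to 70 Mb stayed below 0 in both clones and treatments under every alternative run. No paired analysis was possible because the columns carry no replicate numbers. In 1 fit over all 30 libraries, called members numbered 388 untreated and 372 after IFNG for KO, 374 and 355 for KO1 and 303 and 308 for KO2, with 133 (KO1) and 132 (KO2) up to 70 Mb lower after IFNG. No share over all genes is given for that fit, so its counts say nothing particular about the members. With counts summed per clone 0 members were called in either treatment, beside 1 of 16189 genes untreated and 1 of 16197 after IFNG. Leaving out 1 clone or library at a time gave, untreated and after IFNG, 145 to 365 and 119 to 342 called members for KO (98 to 132 and 80 to 127 lower up to 70 Mb), 151 to 359 and 103 to 342 for KO1 (79 to 127 and 55 to 121), 78 to 344 and 46 to 286 for KO2 (58 to 135 and 31 to 123), 108 to 133 and 51 to 93 between the KO clones, and 123 to 179 and 107 to 162 for the responses of KO1 and KO2. Without WT1, 132 members up to 70 Mb were lower and 14 higher in untreated KO cells, and 108 and 111 beyond, against 113 and 5 up to 70 Mb without WT2 and 110 and 2 without WT3. Calls over all genes moved too. In untreated KO cells 3208 genes were lower and 3264 higher without WT1, 1578 and 1379 without WT2, and 1517 and 1253 without WT3. With every clone kept, 1997 were lower and 1692 higher. The shifts with a library or clone left out were -0.29 to -0.25 (KO1) and -0.30 to -0.26 (KO2) untreated and -0.27 to -0.23 and -0.30 to -0.25 after IFNG up to 70 Mb, and -0.0048 to 0.016, -0.0082 to 0.0012, -0.0015 to 0.0058 and -0.009 to 0.012 beyond. Up to 70 Mb, a pseudocount of 2 gave -0.25 in untreated KO2 and -0.23 in IFNG-treated KO1, a minimum of 5 CPM -0.30 (KO1) and -0.29 (KO2) untreated, a minimum of 10 CPM -0.30 and -0.30, the mean in place of the median -0.25 in untreated KO2, and protein-coding members alone -0.31 and -0.31 untreated and -0.29 in IFNG-treated KO1. Beyond 70 Mb, untreated KO1 was at -0.0048 by the mean, -0.0058 without the IFNG limit, 0.018 without centring and -0.0050 for protein-coding members, and IFNG-treated KO1 at -0.0063 and -0.0047 with at least 5 and 10 CPM, -0.00057 by the mean, 0.0096 with an IFNG limit of 0.25, -0.0032 without it, 0.0090 without centring and -0.012 for protein-coding members. With stretches of 20 Mb the last low stretch ended at 60 Mb. At 5 Mb, 10 of the 12 stretches up to 70 Mb with at least 5 members were below -0.1 in both clones and treatments, and 0 of 22 beyond. The lower values were thus not uniform within the first 70 Mb. Ptgs2 reversed, from -1.14 in untreated KO against WT to 0.45 in 1 fit over all libraries, and with 1 clone left out it spanned -1.68 (without WT3) to 1.87 (without WT1). For single named genes 1109 values kept direction and side of the threshold, 150 lost and 33 gained significance. The split at 70 Mb, the gene types and the split by length and level were chosen after seeing the data. The causes of these changes were not tested.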
